A study of Sus scrofa with 12 samples.

Results

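The spindle checkpoint genes BUB1, BUB1B, BUB3, MAD2L1 and TTK, the Aurora kinase genes AURKA, AURKB and AURKC with the Aurora B scaffold gene INCENP, and the Polo kinase gene PLK1 were followed in porcine oocytes during meiotic maturation. These 10 genes were chosen by name and matched by symbol to the Ensembl identifiers of the data. A level was found for 9 of the 10, since no identifier was matched to AURKC. Of these, 8 averaged at least 1 FPKM across all libraries and entered the test, which covered 7013 of the 31908 genes listed. FPKM counts fragments relative to the length of the transcript and to the size of the library. Levels of different genes are therefore compared per length only. Tail length and base composition can also differ between genes, and FPKM does not correct for them.

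The oocytes came from ovaries of prepubertal gilts collected at a slaughterhouse. Cumulus-oocyte complexes were pooled, matured in a medium with follicular fluid, PMSG, HCG and EGF for 0h, 22h or 46h, and stripped of cumulus cells with hyaluronidase. There were 12 libraries, 4 for each time, each from 20 denuded oocytes, with no further treatment named, and the study used the times to follow oocytes from the germinal vesicle stage to metaphase II. The study's methods name no separate animals for the replicates, so p-values measure only the spread between these pooled samples. SMART-Seq2 primes cDNA with oligo-dT at the poly(A) tail, so a level is that of polyadenylated RNA. Fewer transcripts per oocyte and shorter tails cannot be told apart in such values, nor can less RNA per cell and fewer cells. FPKM is relative to the library, so a higher value need not mean more transcripts per oocyte.

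In a dividing cell, the spindle checkpoint holds back anaphase until every kinetochore, the protein complex that ties a chromosome to the spindle, has been captured by microtubules. TTK (also called MPS1) starts the signal, BUB1 and BUB3 dock on the kinetochore, and MAD2L1 (MAD2), BUB1B (BUBR1) and BUB3 bind CDC20 and so keep the anaphase-promoting complex inactive. Aurora A builds spindle poles, Aurora B and its meiotic relative Aurora C correct wrong attachments as part of the chromosomal passenger complex with INCENP, and PLK1 acts at centrosomes, kinetochores and the cleavage plane. In oocytes this machinery works through meiosis I and again at the metaphase II arrest, while nearly all transcription is silent and the messages present are those stored during growth.

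The stretches of coding sequence below show the kinase activation segment, which holds the phosphorylated site of the activation loop, because the Aurora genes closely resemble each other there and part from PLK1 and TTK. They were read from the RefSeq annotation of Sscrofa11.1, transcript strand, from the transcript with the longest coding sequence. Capitals mark the codons of the Asp-Phe-Gly motif at the start and of the Pro-Pro-Glu or Ala-Pro-Glu motif at the end.
AURKA, chr17:56955950-56958123, minus strand, codons 274 to 299: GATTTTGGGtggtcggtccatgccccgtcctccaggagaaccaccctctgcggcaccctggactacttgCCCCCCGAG
AURKB, chr12:53411429-53412346, minus strand, codons 317 to 342: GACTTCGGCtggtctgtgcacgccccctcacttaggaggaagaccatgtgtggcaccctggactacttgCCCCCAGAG
AURKC, chr6:61587104-61587810, plus strand, codons 172 to 197: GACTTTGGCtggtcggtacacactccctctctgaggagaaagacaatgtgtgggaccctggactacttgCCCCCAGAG
PLK1, chr3:22547119-22547202, minus strand, codons 194 to 221: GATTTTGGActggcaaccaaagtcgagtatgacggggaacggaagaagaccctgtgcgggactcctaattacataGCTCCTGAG
TTK, chr1:86085597-86087308, minus strand, codons 660 to 689: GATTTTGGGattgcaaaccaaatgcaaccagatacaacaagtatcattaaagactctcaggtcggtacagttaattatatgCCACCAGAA

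Over the 78 bases of this segment, AURKB and AURKC were identical at 68, AURKA and AURKB at 60, and AURKA and AURKC at 59. Over the aligned coding sequence, AURKB and AURKC shared 79.7% of 888 bases, with 29 bases as the longest identical run, and AURKA and AURKB shared 66.3% of 1066 bases, with a longest run of 23. Whether reads of AURKC were counted with AURKB was not tested. The segment lies in 1 exon in PLK1 and spans an intron in the other 4 genes.

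BUB1B and BUB1 are related proteins that both carry KEN boxes, the Lys-Glu-Asn motif by which a protein is bound by the anaphase-promoting complex and its activators, and which in BUBR1 is part of the inhibitory checkpoint complex. The windows below show them with their codons in capitals and 15 bases on each side, from the same annotation.
BUB1B, chr1:131140377-131140415, minus strand, codons 26 to 28: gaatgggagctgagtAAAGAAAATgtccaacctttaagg
BUB1B, chr1:131122345-131122383, minus strand, codons 304 to 306: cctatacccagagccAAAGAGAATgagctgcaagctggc
BUB1, chr3:45604781-45605761, plus strand, codons 541 to 543: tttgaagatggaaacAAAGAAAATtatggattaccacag
BUB1, chr3:45607271-45615093, plus strand, codons 630 to 632: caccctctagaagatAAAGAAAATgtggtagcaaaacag

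Both BUB1B windows lie within an exon, and both BUB1 windows run across an intron. The coding sequence is 1062 codons long in BUB1B and 1087 in BUB1. That of BUB3 has 328 codons, and that of MAD2L1, with 205, is the shortest of the 10 genes.

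The last 100 bases of each gene's transcript were searched on the transcript strand for TTTTAT or TTTTAAT, the letters of the cytoplasmic polyadenylation element, and for the polyadenylation hexamers AATAAA or ATTAAA, because tail length enters this measurement. Of 16732 annotated genes, 17.4% held either of the former, 70.8% a hexamer and 13.6% both. Both were found in MAD2L1 and AURKB, shown here with the element in capitals.
MAD2L1: aaatgcctTTTTATgtttcataaaaatcaa
AURKB: tccctcctTTTTATttaataaaggcggaag

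The element started 67 bases before the annotated end in MAD2L1 and 31 bases before it in AURKB, and the hexamer 25 and 23 bases before it. INCENP held the element without a hexamer, AURKA held neither, and the other 6 genes held only a hexamer. These matches describe the annotated ends and not the ends used in these oocytes.

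Levels of the 9 genes spanned a wide range. The highest of the 9 at 0h and 22h was AURKA, with a mean of 1598 ± 513 FPKM (SD, n = 4) at 0h, and the lowest at each time was INCENP, under 1 FPKM. AURKA ranked 62 of the 31908 listed genes by its mean at 0h, 128 at 22h and 235 at 46h. MAD2L1 ranked 286, 269 and 135 in the same order, and at 46h it stood above AURKA in 4 of 4 libraries. BUB3 went from rank 1105 at 0h to rank 3313 at 46h.

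**Figure D1:**
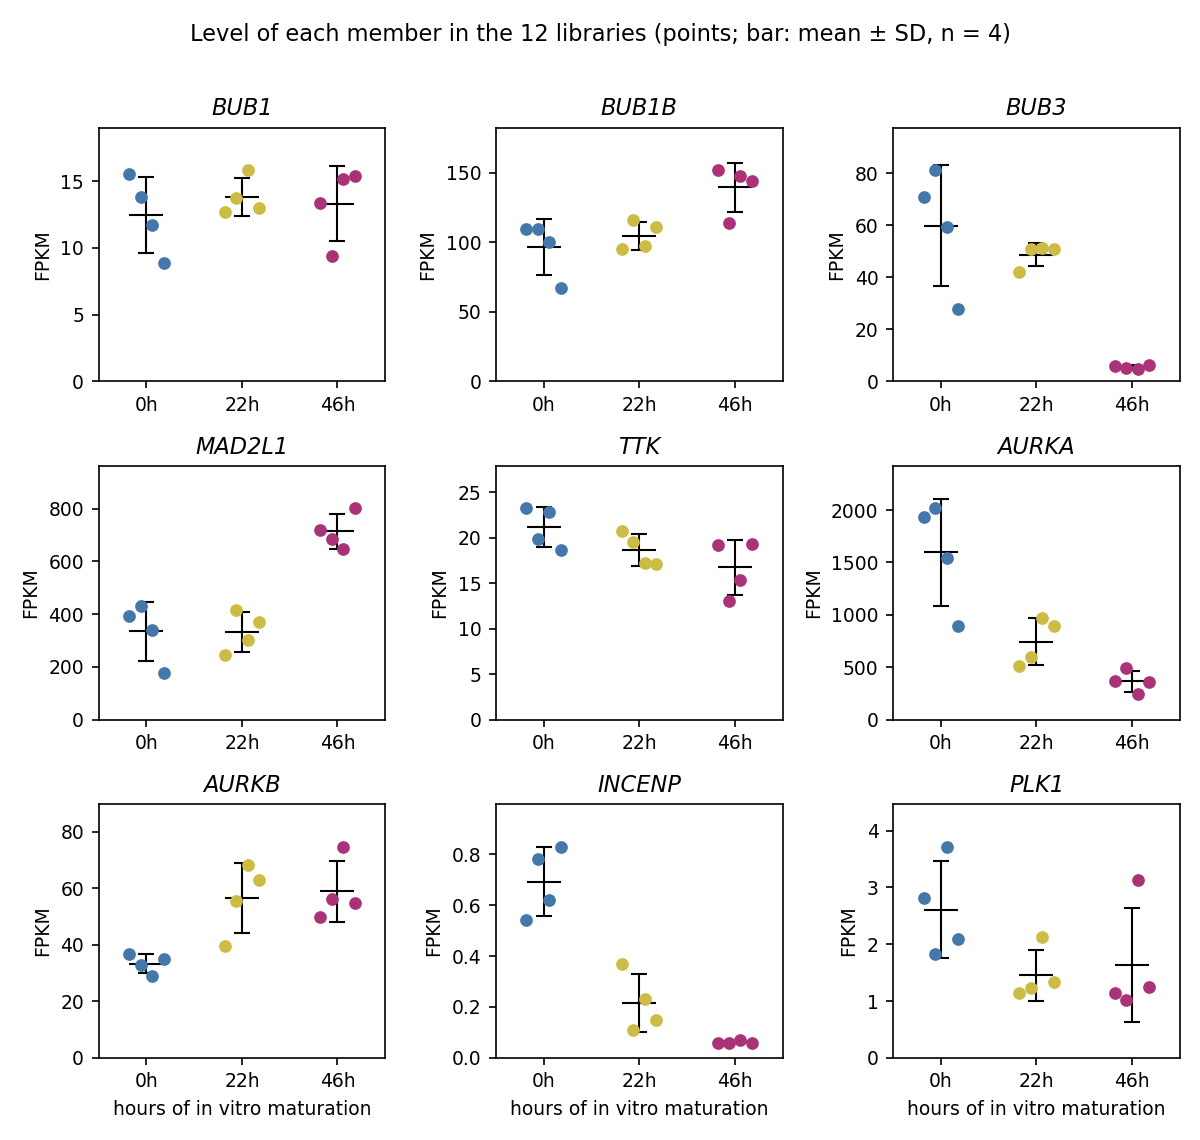
FPKM (vertical axis, from 0, a scale of its own in each panel) of the 9 genes with a level against hours of in vitro maturation. Points are the 4 libraries of each time, the horizontal bar is their mean and the error bar their SD. BUB3 falls to 4.77 to 6.12 FPKM at 46h, MAD2L1 rises to 649.09 to 801.94 FPKM, AURKA falls in both steps and AURKB rises between 0h and 22h.

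At 0h, AURKA was followed by MAD2L1, BUB1B, BUB3, AURKB, TTK, BUB1, PLK1 and INCENP. The ranges of BUB1B and BUB3 overlapped at 0h, as did those of BUB3 and AURKB, and all other neighbours stood apart. At 22h AURKB came before BUB3, with overlapping ranges. At 46h the order was MAD2L1, AURKA, BUB1B, AURKB, TTK, BUB1, BUB3, PLK1 and INCENP, in which TTK and BUB1 alone overlapped.

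Changes between times were tested with limma on log2(FPKM + 1). Calls required an adjusted p below 0.05 together with a change of more than 1.5-fold, and fold changes and standard errors (SE) below are on that log2 scale. Between 0h and 22h, 2 of the 8 genes tested were called. AURKB was higher and AURKA lower, where 26.7% of all genes tested were called, 7.84% higher and 18.9% lower. Between 22h and 46h, 3 of 8 were called, MAD2L1 higher and BUB3 and AURKA lower, against 42.4% of all genes, 9.87% higher and 32.6% lower. Between 0h and 46h, 4 of 8 were called, MAD2L1 and AURKB higher and BUB3 and AURKA lower, against 55.9% of all genes, 16.8% higher and 39.1% lower. The median log2 fold change of the 8 genes was -0.07, -0.01 and -0.12 in these comparisons, beside -0.00, -0.26 and -0.25 for all genes tested. With quantile normalization 5 of 8 were called between 22h and 46h, beside 3311 of the 7013 genes, and 6 of 8 between 0h and 46h, beside 4666 of the 7013 genes.

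**Figure D2:**
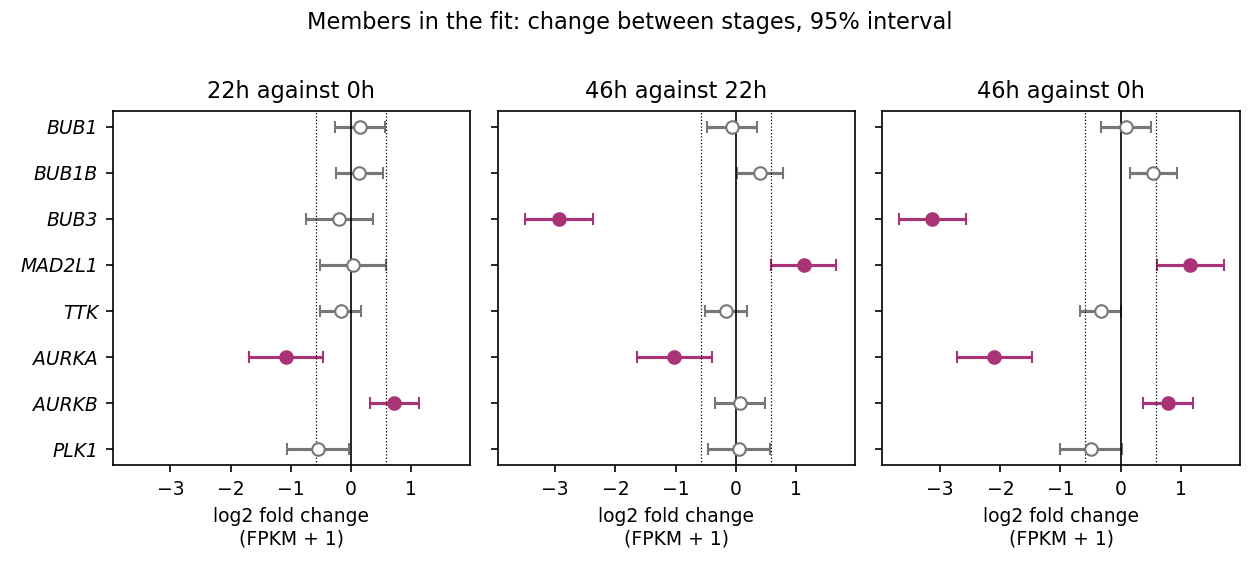
Log2 fold change of log2(FPKM + 1) (horizontal axis) of the 8 genes in the limma fit, for each pair of times, with the 95% confidence interval. Filled points are called, open points are not, and dotted lines mark a fold change of 1.5. BUB3 at 46h lies far to the left at -2.94 and -3.13, and AURKA is filled in all 3 panels.

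MAD2L1 encodes the checkpoint protein that closes around CDC20, and its transcript level in FPKM about doubled at the end of maturation. The gene is on chromosome 8 (103927358 to 103936669, plus strand, 5 exons, Sscrofa11.1; ENSSSCG00000036256). Its level was 392.50, 432.59, 340.67 and 176.77 FPKM in the 0h libraries, 243.33, 415.48, 300.16 and 369.76 at 22h, and 719.61, 684.57, 649.09 and 801.94 at 46h. Every 46h library was above every earlier library, while the 0h and 22h libraries overlapped throughout. The mean at 46h, 714 ± 65.4 FPKM (SD, n = 4), was 2.13-fold that at 0h and 2.15-fold that at 22h. Against 0h the log2 fold change was 1.16 (SE 0.255, limma adjusted p = 0.00118), and it was 1.13 (SE 0.255, adjusted p = 0.0023) against 22h. Between 0h and 22h it was 0.03, with a 95% interval from -0.51 to 0.58, and -0.25 without replicate 4 of 0h.

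BUB3 encodes the WD40 protein that carries BUB1 and BUBR1 to the kinetochore. Its transcript level fell at the same step at which that of MAD2L1 rose. Its locus is on chromosome 14 (132703088 to 132715353, plus strand, 8 exons; ENSSSCG00000010726). Its level was 70.84, 81.19, 59.19 and 27.65 FPKM at 0h, 41.81, 50.73, 51.16 and 50.96 at 22h, and 5.86, 5.16, 4.77 and 6.12 at 46h. The 46h libraries lay within a narrow band below all others, and the 0h libraries spread on both sides of those at 22h. The mean of 5.48 ± 0.622 FPKM (SD, n = 4) at 46h was 10.9-fold lower than at 0h and 8.88-fold lower than at 22h. For 46h against 0h the log2 fold change was -3.13 (SE 0.261, limma adjusted p = 1.21e-07), and it was -2.94 (SE 0.261, adjusted p = 4.55e-07) against 22h. Of all genes tested, 3.09% had a lower fold change between 22h and 46h. Between 0h and 22h the value was -0.19 (adjusted p = 0.606), and -0.52 without replicate 4 of 0h (adjusted p = 0.0214, short of the 1.5-fold threshold).

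BUB1B, the BUBR1 protein of the inhibitory complex, had the highest transcript level of BUB1B, BUB1 and TTK, the kinase-domain members of the checkpoint. Its gene is on chromosome 1 (131093026 to 131143840, minus strand, 23 exons; ENSSSCG00000004782). Its level was 109.75, 109.35, 100.32 and 66.81 FPKM at 0h, 95.31, 115.76, 96.97 and 110.94 at 22h, and 152.03, 113.55, 147.86 and 144.26 at 46h. Of the 46h libraries, 3 stood above all earlier libraries, and replicate 2 lay within the 22h range. The log2 fold change between 0h and 46h was 0.54 (SE 0.182, limma adjusted p = 0.0174), which passed the adjusted p but not the 1.5-fold threshold. It was called with median-of-ratios scaling at 0.94 (adjusted p = 0.00258), with quantile normalization at 0.91, with TPM without mitochondrial genes at 0.63, and at 0.61, 0.61 and 0.64 without replicate 1 of 0h, replicate 2 of 0h or replicate 2 of 46h. With TPM the value between 0h and 46h was 0.44 (limma adjusted p = 0.0643) and passed neither threshold. Without replicate 4 of 0h it was 0.38 (adjusted p = 0.041) and not called. Between 22h and 46h the value was 0.40 (adjusted p = 0.0806). It was called with median-of-ratios scaling at 0.76 (adjusted p = 0.0144) and with quantile normalization at 0.63 (adjusted p = 0.0101).

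BUB1, the kinase that marks the inner centromere and recruits BUBR1 and shugoshin, had overlapping levels at all times. The BUB1 gene is on chromosome 3 (45585188 to 45623240, plus strand, 25 exons; ENSSSCG00000030469). The level was 15.55, 13.81, 11.72 and 8.90 FPKM at 0h, 12.73, 13.74, 15.85 and 12.98 at 22h, and 13.38, 9.38, 15.14 and 15.43 at 46h. No group stood apart from the others, and no comparison was called. The 95% interval of the log2 fold change between 0h and 46h ran from -0.33 to 0.51, so that the data set no direction, and under quantile normalization BUB1 was called higher at 0.72 (adjusted p = 0.00816).

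TTK, the kinase that starts the checkpoint signal, was also not called in any comparison. The TTK gene is on chromosome 1 (86076576 to 86125334, minus strand, 22 exons; ENSSSCG00000004466). Its level was 23.26, 19.93, 22.81 and 18.71 FPKM at 0h, 20.74, 19.60, 17.27 and 17.08 at 22h, and 19.25, 13.05, 15.34 and 19.31 at 46h. The means were 21.2 ± 2.21, 18.7 ± 1.79 and 16.7 ± 3.08 FPKM (SD, n = 4), with overlapping ranges. The log2 fold change between 0h and 46h was -0.33 (95% interval -0.68 to 0.01, limma adjusted p = 0.085), and it turned to 0.05 with median-of-ratios scaling and to 0.24 with quantile normalization.

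AURKA encodes the kinase of spindle poles, and its transcript level fell in both steps. The gene lies on chromosome 17 (56954838 to 56972435, minus strand, 9 exons; ENSSSCG00000007493). Its level was 1934.52, 2017.82, 1545.88 and 892.58 FPKM at 0h, 515.76, 601.78, 970.39 and 892.24 at 22h, and 371.78, 490.30, 247.20 and 353.60 at 46h. Replicate 4 of 0h lay within the 22h range, the other 0h libraries above it, and all 46h libraries below it. The mean fell 2.14-fold between 0h and 22h and 2.04-fold between 22h and 46h, and was 4.37-fold lower at 46h than at 0h. The log2 fold change was -1.08 (SE 0.291, limma adjusted p = 0.0119), -1.02 (SE 0.291, adjusted p = 0.01) and -2.10 (SE 0.291, adjusted p = 2.07e-05) in that order. With median-of-ratios scaling the step from 22h to 46h was -0.66 (adjusted p = 0.122) and no longer called.

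AURKA shares 206 exonic bases, 8.97% of its exons, with CSTF1 on the opposite strand, and SMART-Seq2 does not mark the strand. CSTF1 was listed at 238.95, 217.49, 135.60 and 54.82 FPKM at 0h, between 38.65 and 76.90 FPKM at 22h and between 48.83 and 62.27 FPKM at 46h. The CSTF1 mean was 0.35-fold at 22h what it was at 0h, and at 46h it was 0.987-fold that at 22h. Its part in the AURKA level was not tested.

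AURKB encodes the kinase of the chromosomal passenger complex, and its transcript level rose between 0h and 22h. Its gene is on chromosome 12 (53410833 to 53426165, minus strand, 11 exons; ENSSSCG00000028924). Its level was 36.61, 32.85, 29.01 and 35.08 FPKM at 0h, 39.58, 55.50, 68.23 and 62.89 at 22h, and 49.94, 56.24, 74.80 and 54.71 at 46h. Every later library was above every 0h library, and the 22h and 46h libraries overlapped. The mean went from 33.4 ± 3.30 to 56.6 ± 12.5 and 58.9 ± 10.9 FPKM (SD, n = 4), 1.69-fold and 1.76-fold that at 0h. The log2 fold change was 0.72 (SE 0.189, limma adjusted p = 0.0105) at 22h and 0.79 (SE 0.189, adjusted p = 0.00221) at 46h against 0h. From 22h to 46h the value was 0.07, with a 95% interval from -0.34 to 0.48.

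INCENP, which anchors Aurora B to the inner centromere and activates it, had a mean under 1 FPKM. The INCENP gene is on chromosome 2 (9411942 to 9445825, minus strand, 20 exons; ENSSSCG00000013066). Its level was 0.54, 0.78, 0.62 and 0.83 FPKM at 0h, 0.37, 0.11, 0.23 and 0.15 at 22h, and 0.06, 0.06, 0.07 and 0.06 at 46h. The groups did not overlap at any step. The difference of mean log2(FPKM + 1) was -0.48, -0.19 and -0.67 between 0h and 22h, 22h and 46h, and 0h and 46h, each with an exact two-sided permutation p of 0.0286, the smallest that 4 against 4 libraries allow. With a pseudocount of 0.1 the differences were -1.38, -0.89 and -2.27, since a pseudocount of 1 is larger than these levels. The exact permutation p for 22h and 46h was 0.0571 with any single 46h library left out. No adjustment over genes applies to this value, which stands outside the fit.

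PLK1, the Polo kinase of the list, was low at all times. The PLK1 gene is on chromosome 3 (22537814 to 22550901, minus strand, 11 exons; ENSSSCG00000026748). Its level was 2.81, 1.82, 3.72 and 2.09 FPKM at 0h, 1.14, 1.23, 2.12 and 1.33 at 22h, and 1.15, 1.02, 3.14 and 1.25 at 46h. The 3 groups overlapped, and replicate 3 was the highest library in each of them. The log2 fold change was -0.54 between 0h and 22h (limma adjusted p = 0.0975) and -0.49 between 0h and 46h (adjusted p = 0.0886). Without replicate 3 of 46h the latter was -0.73 (adjusted p = 0.00733) and called, whereas quantile normalization gave 0.18. PLK1 shares 59 exonic bases with ERN2, which was listed at 0 in all 12 libraries.

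Ratios of 2 genes within a library do not change when a library is scaled by a single factor, though quantile normalization can change them, and they are given as a description. The ratio of MAD2L1 to BUB3 was 5.33 to 6.39 at 0h, 5.82 to 8.19 at 22h and, in the 46h libraries, 123 to 136. Their proteins belong to the same inhibitory complex, and their transcript levels parted between 22h and 46h. Protein levels were not measured. The ratio of BUB1B to BUB3 was 1.35 to 2.42, 1.9 to 2.28 and 22 to 31 in the same order. For AURKA over AURKB the ratio was 25.4 to 61.4 in the 0h libraries, 10.8 to 14.2 in those of 22h and 3.3 to 8.72 in those of 46h, with no overlap between times. That of BUB1B to BUB1 was 7.06 to 8.56, 6.12 to 8.55 and 9.35 to 12.1, and that of TTK to BUB1 was 1.44 to 2.1, 1.09 to 1.63 and 1.01 to 1.44.

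**Figure D3:**
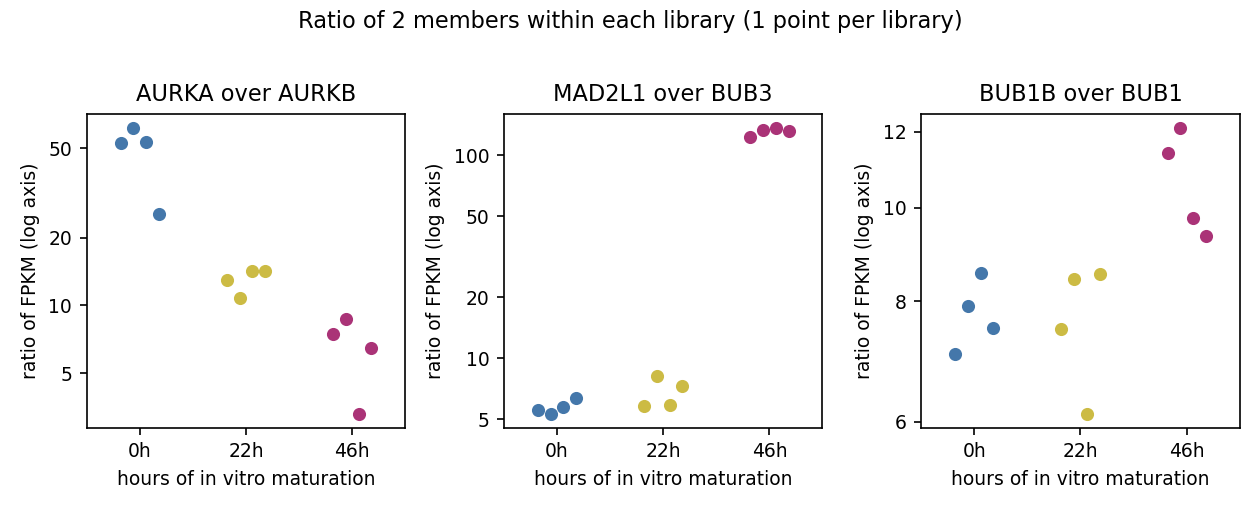
Ratio of the FPKM of a pair of genes within each library (vertical axis, log scale) against hours of in vitro maturation, 1 point per library. The ratio of MAD2L1 to BUB3 is at most 8.19 until 22h and is 123 to 136 at 46h, and that of AURKA to AURKB falls at both steps.

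The partners of these proteins were given by 4 lists compiled from textbook roles, of which 29 genes were tested. Of the 29, 2 rose and 2 fell in the step from 0h to 22h, 6 rose and 10 fell from 22h to 46h, and 8 rose and 8 fell from 0h to 46h, where 26.7%, 42.4% and 55.9% of all genes tested were called. No called partner turned in direction under any alternative, but the counts depended on the scaling and on other settings. With the replicate block, 8 in place of 10 were lower from 22h to 46h, beside 2263 in place of 2283 of all genes. With no filter on low values 8 were lower too, beside 2175 of 17633 genes. The passenger partner KIF2C (-0.65, limma adjusted p = 0.058 with the block) and TRIP13 were lost in both. The KIF2C call was also lost with median-of-ratios scaling (-0.30, adjusted p = 0.201) and quantile normalization (-0.22, adjusted p = 0.415). It was lost as well without replicate 1 or 3 of 22h, or replicate 3 or 4 of 46h. Leaving out single libraries gave 8 to 11 lower. From 22h to 46h, 8 were higher and 7 lower with median-of-ratios scaling, and 10 were higher and 6 lower with quantile normalization, where all genes tested gave 1407 higher and 1793 lower, and 1971 higher and 1340 lower. From 0h to 46h these scalings gave 11 higher and 7 lower, and 14 higher and 8 lower, beside 2046 higher and 2312 lower, and 2877 higher and 1789 lower, of all genes. From 0h to 22h quantile normalization gave 6 higher and 2 lower, beside 1048 and 1126 of all genes, and 5 in place of 2 were higher without replicate 4 of 0h, beside 862 in place of 550 of all genes. Their median log2 fold change was 0.03, -0.16 and -0.02 in these comparisons.

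Among the checkpoint partners, 9 of 11 listed genes were tested, and 2 rose and 2 fell between 0h and 46h, a comparison in which 16.8% of all genes rose and 39.1% fell. CDC20, the target of the checkpoint, went from 23.2 ± 1.99 to 54.1 ± 23.4 and 47.7 ± 12.6 FPKM (SD, n = 4), and it was higher at 22h (log2 fold change 1.08, limma adjusted p = 0.00923) and at 46h (0.98, adjusted p = 0.00662) than at 0h. ZWILCH, of the complex that brings dynein and MAD1 to kinetochores, rose by 1.42 (adjusted p = 1.28e-05) between 0h and 46h. MAD2L1BP, the p31comet protein that helps to dismantle the inhibitory complex, fell from between 11.38 and 12.95 FPKM to between 1.38 and 2.75 FPKM, a log2 fold change of -2.21 (adjusted p = 1.54e-06). SPDL1, a dynein adaptor of the kinetochore, had a value of -1.12 (adjusted p = 0.0016), and of -0.73 (adjusted p = 0.0511, not called) with median-of-ratios scaling. TRIP13, the ATPase that works with p31comet, was lower at 46h than at 22h (-0.89, adjusted p = 0.0411). That call was lost with the replicate block (adjusted p = 0.0526), with median-of-ratios scaling (-0.55), quantile normalization (-0.41) and no filter, and without replicate 3 of 0h, replicate 1, 2 or 3 of 22h, or replicate 1, 2 or 4 of 46h. MAD1L1, the kinetochore receptor of MAD2L1, was listed between 0.00 and 0.17 FPKM in all libraries and was not tested.

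Of the 8 chromosomal passenger partners, 2 rose and 2 fell between 0h and 46h, beside 55.9% of all genes called. BIRC5 (survivin), a subunit of the passenger complex, went from 38.7 ± 6.12 to 12.3 ± 3.77 and 1.85 ± 0.295 FPKM (SD, n = 4), with a log2 fold change of -3.79 (SE 0.214, limma adjusted p = 2.11e-09) between 0h and 46h. HASPIN, the histone kinase that recruits the complex to centromeres, changed by -1.65 (adjusted p = 5.87e-06). Its mean went from 3.29 to 1.56 and 0.348 FPKM, 9.46-fold lower at 46h than at 0h. The pseudocount of 1 is larger than its 46h levels and makes the log2 value smaller. The shugoshins SGO1 and SGO2, which shield centromeric cohesin, were higher at 46h by 0.93 (adjusted p = 0.000236) and 1.26 (adjusted p = 0.00479). CDCA8 (borealin), the remaining subunit, was not called, with -0.15 (adjusted p = 0.57). At 46h the subunit genes stood at 58.9 FPKM for AURKB, 5.85 for CDCA8, 1.85 for BIRC5 and 0.0625 for INCENP, per length. G and C make up 64.7% of the coding sequence in INCENP and 57.8% in AURKB. The part of this in the levels was not tested.

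Of the Aurora A partners, 6 of 8 listed genes were tested, and 2 rose and 2 fell between 0h and 46h, beside the same 55.9% of all genes. BORA, the activator through which Aurora A phosphorylates PLK1, rose from 30.5 ± 4.93 to 43.8 ± 7.35 and 96.7 ± 12.4 FPKM (SD, n = 4), a log2 fold change of 1.64 (limma adjusted p = 1.15e-06) between 0h and 46h. PPP6C, the phosphatase that acts on the Aurora A activation loop, rose by 1.58 (adjusted p = 6.1e-07). AJUBA, a LIM protein that binds Aurora A, was 56.87 to 84.62 FPKM at 0h, 56.08 to 75.86 at 22h and only 0.58 to 1.23 at 46h (-5.28, adjusted p = 1.91e-11). CEP55, a midbody protein, changed by -3.66 (adjusted p = 7.29e-08), to 0.51 to 0.86 FPKM at 46h. TPX2, the spindle activator of Aurora A, was at 42.39 to 59.49 FPKM at 0h and 42.44 to 56.88 FPKM at 46h and was not called, with a log2 fold change of -0.02 between 0h and 46h.

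Of the Polo family and partner list, 6 of 8 listed genes were tested, and 2 rose and 2 fell between 0h and 46h, where 55.9% of all genes were called. FBXO5 (EMI1), an inhibitor of the anaphase-promoting complex, was at 433 ± 195, 612 ± 209 and 120.5 ± 33.8 FPKM (SD, n = 4), with a log2 fold change of -1.74 (limma adjusted p = 0.000996). CENPU, a kinetochore docking protein of PLK1, changed by -1.64 (adjusted p = 4.26e-05). PRC1, the midzone bundler, and STIL, a centriole protein, were higher by 0.87 (adjusted p = 0.0103) and 0.62 (adjusted p = 0.00783). STIL was short of the 1.5-fold threshold with TPM (0.55) and without replicate 2 of 0h, replicate 1 of 46h or replicate 3 of 46h (0.50 to 0.57). PLK3 was not called in any comparison, with means of 7.44 to 11.4 FPKM, and PLK2 was listed under 1 FPKM in every library.

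**Figure D4:**
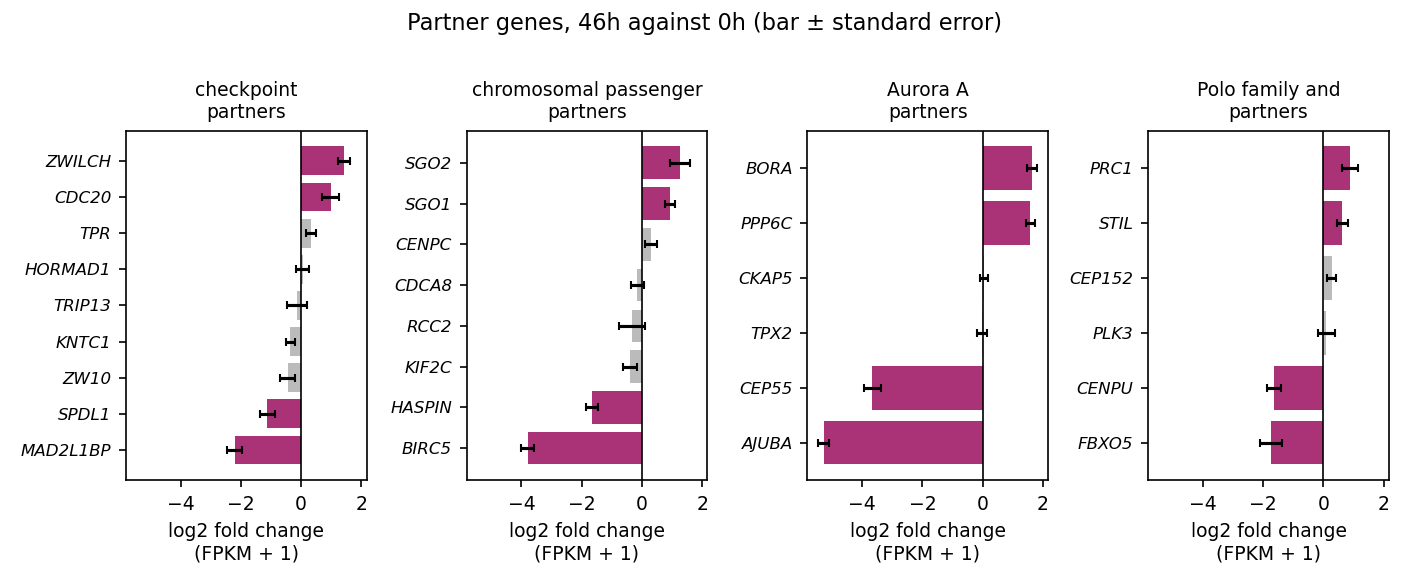
Log2 fold change of log2(FPKM + 1) between 0h and 46h (horizontal axis) of the 29 partner genes tested, in their 4 lists, with the standard error. Coloured bars are called and grey bars are not. Each list holds 2 genes called higher and 2 called lower, and AJUBA at -5.28 and BIRC5 at -3.79 are the furthest to the left.

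Genes whose pattern over the 12 libraries was most like that of a member were sought among 6105 named genes by Pearson's r of log2(FPKM + 1), as a description. For BUB3 these were SLC10A7 (r = 0.998) and UNC50 (r = 0.99), for MAD2L1 CCT8 (r = 0.99) and VCAN (r = 0.98), and for AURKA LDHA (r = 0.99) and PDCL3 (r = 0.98). The gene most like AURKB was CDC20 (r = 0.97), which itself is held at bay by the checkpoint, followed by PEF1 (r = 0.97). For BUB1B, ARCN1 (r = 0.965) and DENND4C (r = 0.95) came closest. Between members r was highest for BUB1B and MAD2L1 at 0.92 and for BUB3 and AURKA at 0.85. The libraries share their stage and their scaling in all these values.

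Of 8 oocyte markers 6 were matched (ZP2, ZP3, ZP4, GDF9, BMP15 and FIGLA), and each was above 1 FPKM in every library, FIGLA with 1.04 to 1.80 FPKM at 46h only just so. Their summed level was lower at 46h, 3890 to 7319 FPKM, than at 0h and 22h. Of 14 matched cumulus and granulosa markers, 12 stayed under 1 FPKM in every library, with sums of at most 0.76 FPKM, and LHCGR, AMHR2 and KRT18 were at 0. The other 2, STAR and VCAN, were above 1 FPKM, and VCAN moved with MAD2L1, at 29.01 to 81.92 FPKM in the 0h libraries and 104.57 to 135.51 FPKM in those of 46h. Blood markers stayed under 1 FPKM. Of 5 matched stroma and vessel markers, 3 stayed under 1 FPKM, with COL1A1 at 0. PECAM1 had means of 9.29 ± 1.36, 15.6 ± 6.57 and 22.1 ± 1.14 FPKM (SD, n = 4) at the 3 times, with every 46h library above every earlier library. DCN had means of 1.01, 1.32 and 1.78 FPKM, with overlapping ranges. The part of these markers in the member levels was not tested. Mitochondrially encoded genes took 1.79% to 3.76% of FPKM in the 0h libraries, 8.06% to 12% in those of 22h and 12.8% to 16.7% in those of 46h. With TPM without these genes AURKA and AURKB were still called between 0h and 22h (adjusted p = 0.0256 and 0.00738). The number of genes that reached 1 FPKM was 6939 to 7895 per 0h library, 6682 to 7135 per 22h library and 5819 to 6076 per 46h library. Every 46h library was thus below all earlier ones, and the part of this in the 46h changes was not tested. Replicate 4 of 0h was the lowest 0h library for AURKA, MAD2L1, BUB3, BUB1B, BUB1 and TTK, and without it the same number of members was called in each comparison. FPKM carries no read counts, so depth and counting error are unknown.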

How the data were processed

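The authors trimmed reads with Trim Galore, aligned them to Sscrofa11 with STAR and deposited 1 FPKM value per Ensembl gene and library, made with RSEM. Their own test used counts that are not used here. Depth is unknown. FPKM values were used as deposited. Identifiers were named from a reference gene name table, except AURKA, named from the gene symbols of a supplementary table of the study. AURKC, KNL1, TACC3, CEP192 and PLK4 were not analysed here.

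Genes averaging at least 1 FPKM were fitted as log2(FPKM + 1) with limma 3.58.1 in R 4.3.3 (eBayes with trend), all 12 libraries, stage as the only factor, two-sided, Benjamini-Hochberg adjustment over the 7013 genes, after a test of the script on simulated data. INCENP, under that filter, had an exact permutation test over 70 arrangements. All members are named, and of each partner list up to 6 called genes with the largest change between 0h and 46h. TRIP13, KIF2C, CDCA8, TPX2, PLK3 and the genes under 1 FPKM were added after their values were seen. Members and lists were chosen with earlier results of these data known. Positions and sequences are from RefSeq Sscrofa11.1, read with Biopython 1.88. Alternatives were a pseudocount of 0.1, filters of none or 5 FPKM, median-of-ratios, quantile and TPM scaling, TPM without mitochondrial genes, a fit of the 8 libraries compared, eBayes without trend, a replicate block, and each library left out.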

Additional observations from a re-analysis of the deposited data

Results flagged for a closer look

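Of 27 groups of 4 libraries (9 genes at 3 times), 3 held a library far from the other 3, where chance gives about 1 in 20. BUB3 at 22h was 41.81 FPKM in replicate 1 and 50.73 to 51.16 FPKM in the others. PLK1 at 46h was 3.14 FPKM in replicate 3 and 1.02 to 1.25 FPKM in the others. INCENP at 46h was 0.07 FPKM in replicate 3 and 0.06 FPKM in the others, which is the last decimal of the deposited values.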

How the results depend on the processing

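Over 525 alternative values of the 8 members in the fit, 493 kept their direction and their call, 20 turned in direction without a call, 11 gained a call and 1 lost it (AURKA between 22h and 46h). With quantile normalization 5 members in place of 3 were called between 22h and 46h, BUB1B and PLK1 (0.59, adjusted p = 0.0396) being added, while all genes called went from 2975 (692 higher) to 3311 (1971 higher). With the replicate block, 2, 3 and 4 members were called, as without it. Deviations of same-numbered libraries correlated at 0.38, 0.01, 0.21 and 0.13 between 22h and 46h, where 3 of 4 had their own number as best partner, and at -0.47 to 0.08 in the pairs with 0h, where none had. Not every pair was over 0.1, so no pairing was assumed.

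The log2 fold change of BUB1 between 22h and 46h turned: median-of-ratios gave 0.26, quantile normalization 0.40 and leaving out single libraries -0.14 to 0.08. For BUB1 between 0h and 46h, TPM gave -0.01 and leaving out libraries -0.05 to 0.24. For TTK between 22h and 46h the 2 scalings gave 0.18 and 0.30, and between 0h and 46h 0.05 and 0.24. For AURKB and PLK1 between 22h and 46h, TPM gave -0.02 and -0.00, and leaving out libraries -0.09 to 0.17 and -0.18 to 0.18. PLK1 between 0h and 46h was 0.18 with quantile normalization. Leaving out libraries gave -0.03 to 0.21 for BUB1B and -0.25 to 0.18 for MAD2L1 between 0h and 22h. INCENP between 22h and 46h was -0.23 to -0.13, and with any single 46h library left out its exact permutation p was 0.0571. The median over all genes tested between 0h and 46h was -0.25 as deposited, 0.06 with median-of-ratios, 0.37 with quantile normalization and -0.35 with TPM, and higher genes were 30.1%, 46.9%, 61.7% and 25.6% of those called. The cause of these shifts was not tested.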
